A study of Mus musculus with 24 samples.

Results

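The regions described here were the WT H3K27ac peaks of mouse forelimb buds that carried a peak in every active-mark list of the series. They were selected on measured peaks: a WT H3K27ac peak was taken when it overlapped, by 1 bp or more, a peak of H3K27ac in Shh-/- limb buds, of H3K4me2 in each of the 2 genotypes, and of H3K27ac in control and in purmorphamine-treated NIH3T3 cells. The rule found 8920 of 49679 peaks (18%, 95% Wilson interval 17.6 to 18.3). They are called constitutive regions below, which names their presence in these 6 lists and no measured activity. Chromosomes 1 to 19 and X each held 100 or more of them.

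The series held 24 ChIP-seq libraries in 14 groups, 14 immunoprecipitations and 10 inputs. Limb buds were forelimb buds of Swiss Webster embryos at E10.5 (32 to 35 somites), either WT or homozygous for a null allele of Shh, with about 400000 cells per immunoprecipitation. By the study's methods the WT buds came from WT and heterozygous littermates together, and buds of several embryos were pooled. NIH3T3 cells, an established mouse fibroblast line, received 400 nM purmorphamine, a small molecule that activates Smoothened, the transducer of the Hedgehog signal, or DMSO as control, for 48 h in low serum, with 1000000 cells per immunoprecipitation. The limb and the NIH3T3 immunoprecipitations of H3K27ac were made with different antibodies. Each list was called by the authors from 2 replicates entered together, so no list has a replicate list, no test between conditions was possible, and every interval below covers counting error only. Read depth per library is unknown from the lists. A rank percentile below is a peak's rank in its list as a percent of the list's length, where 0 is best and 100 is last.

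As background, acetylation of histone H3 at lysine 27 marks active promoters and enhancers, and dimethylation of lysine 4 marks promoters and enhancers that are active or primed. Trimethylation of lysine 27 is laid down by a Polycomb complex and marks repressed developmental genes. Most promoters of genes used by every cell lie in CpG islands, stretches in which CpG dinucleotides have kept their expected frequency, while many tissue-restricted promoters and most enhancers are poor in CpG.

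The labelled tissues were checked against marker genes at promoter windows, which reach from 2 kb before a protein-coding transcription start to 1 kb past it. All 5 forelimb mesenchyme markers (Prrx1, Tbx5, Hand2, Twist1 and Msx1) had an H3K27ac peak in both limb lists and 2 of 5 did in NIH3T3 cells. All 6 fibroblast markers had one in both NIH3T3 lists and 3 of 6 in both limb lists. Of the markers of other cell types, 1 of 3 blood and 1 of 3 endothelial genes had a WT limb H3K27ac peak, and 0 of 3 limb ectoderm, 0 of 3 muscle precursor and 0 of 3 neural genes did. In the Shh-/- list, 2 of 3 muscle precursor markers had one. None of those 15 markers of other cell types had a constitutive region.

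The base composition that separates the constitutive regions from the other peaks can be read in the sequences of a few of them. The central 300 bp of 5 CpG-rich and 3 CpG-poor regions follow, on the plus strand of mm10 from RefSeq GRCm38.p6, in lower case with every CpG dinucleotide in capitals. They were picked from the regions named below to show both kinds. The first 5 lie at the promoter windows of Gas1, a Hedgehog co-receptor gene (chr13:60176175-60176474, within its exon, 40 CpG), Prrc2a, which encodes a proline-rich coiled-coil protein (chr17:35164375-35164674, intron, 33 CpG), Dars, the aspartyl-tRNA synthetase gene (chr1:128416750-128417049, intron, 25 CpG), Polr2a, which encodes the largest subunit of RNA polymerase II (chr11:69758950-69759249, outside every protein-coding gene, 20 CpG), and Fosl2, an AP-1 gene (chr5:32135350-32135649, outside every protein-coding gene, 34 CpG). The other 3 lie 6337 bp downstream of the start of Cdkn1b, a cell cycle inhibitor gene (chr6:134927675-134927974, outside every protein-coding gene, 6 CpG), at the promoter window of Igf2, a growth factor gene (chr7:142662200-142662499, intron, 1 CpG), and within Hdac9, a histone deacetylase gene, far from its start (chr12:34219750-34220049, intron, 1 CpG).
Gas1: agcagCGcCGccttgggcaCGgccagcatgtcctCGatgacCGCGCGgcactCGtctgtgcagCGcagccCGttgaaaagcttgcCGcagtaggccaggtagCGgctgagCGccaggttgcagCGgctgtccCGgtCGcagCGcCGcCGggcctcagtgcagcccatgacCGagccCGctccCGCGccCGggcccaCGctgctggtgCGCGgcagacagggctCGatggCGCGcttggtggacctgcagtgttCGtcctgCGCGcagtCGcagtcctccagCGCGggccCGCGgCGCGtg
Prrc2a: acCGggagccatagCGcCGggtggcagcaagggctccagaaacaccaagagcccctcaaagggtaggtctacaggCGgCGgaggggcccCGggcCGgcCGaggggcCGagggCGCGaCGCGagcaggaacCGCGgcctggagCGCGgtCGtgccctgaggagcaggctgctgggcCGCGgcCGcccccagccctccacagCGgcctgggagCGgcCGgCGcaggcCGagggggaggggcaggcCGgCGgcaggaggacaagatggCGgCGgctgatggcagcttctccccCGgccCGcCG
Dars: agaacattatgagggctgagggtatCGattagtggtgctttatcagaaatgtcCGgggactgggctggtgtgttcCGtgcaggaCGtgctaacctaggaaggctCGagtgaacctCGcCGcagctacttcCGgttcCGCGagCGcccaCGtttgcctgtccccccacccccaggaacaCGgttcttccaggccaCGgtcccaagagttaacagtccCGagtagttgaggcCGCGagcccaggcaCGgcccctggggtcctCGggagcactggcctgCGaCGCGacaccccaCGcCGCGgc
Polr2a: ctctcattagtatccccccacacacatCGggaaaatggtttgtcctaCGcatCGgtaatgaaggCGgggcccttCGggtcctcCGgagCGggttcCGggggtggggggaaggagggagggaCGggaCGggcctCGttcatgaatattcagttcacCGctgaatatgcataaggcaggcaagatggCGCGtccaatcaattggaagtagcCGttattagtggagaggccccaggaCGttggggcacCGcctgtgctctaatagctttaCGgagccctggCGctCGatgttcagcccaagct
Fosl2: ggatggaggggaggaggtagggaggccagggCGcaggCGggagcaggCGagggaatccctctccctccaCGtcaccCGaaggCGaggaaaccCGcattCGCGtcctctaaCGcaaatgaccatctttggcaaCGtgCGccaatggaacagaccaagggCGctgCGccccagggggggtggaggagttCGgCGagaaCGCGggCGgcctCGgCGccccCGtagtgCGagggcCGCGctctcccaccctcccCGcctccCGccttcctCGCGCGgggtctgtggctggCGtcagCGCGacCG
Cdkn1b: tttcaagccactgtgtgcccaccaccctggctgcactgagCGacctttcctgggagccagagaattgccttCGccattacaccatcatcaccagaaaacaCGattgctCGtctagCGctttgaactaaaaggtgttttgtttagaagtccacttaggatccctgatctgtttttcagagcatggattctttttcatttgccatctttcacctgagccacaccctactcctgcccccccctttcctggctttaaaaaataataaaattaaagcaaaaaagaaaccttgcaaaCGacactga
Igf2: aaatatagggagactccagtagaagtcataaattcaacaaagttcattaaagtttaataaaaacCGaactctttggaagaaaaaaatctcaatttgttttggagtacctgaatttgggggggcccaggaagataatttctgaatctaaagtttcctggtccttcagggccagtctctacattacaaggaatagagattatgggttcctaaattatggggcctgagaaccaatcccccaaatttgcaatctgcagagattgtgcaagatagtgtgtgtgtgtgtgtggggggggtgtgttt
Hdac9: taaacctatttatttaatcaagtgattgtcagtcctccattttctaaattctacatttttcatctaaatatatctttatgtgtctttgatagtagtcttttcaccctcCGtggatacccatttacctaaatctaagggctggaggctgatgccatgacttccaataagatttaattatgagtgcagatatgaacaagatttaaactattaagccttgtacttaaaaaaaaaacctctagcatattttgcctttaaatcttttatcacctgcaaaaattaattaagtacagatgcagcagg

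The 5 CpG-rich windows held 58.0 to 76.7% G and C with CpG observed/expected ratios of 0.760 to 1.00. The 3 CpG-poor windows held 31.7 to 45.3% and ratios of 0.0881 to 0.419. The Dars window carried an exact match of the ETS motif starting at base 126 on the minus strand. The Prrc2a window carried the YY1 motif at base 259 and the Polr2a window carried it at base 179, both on the plus strand, with an NF-Y motif at base 191 of the latter. The Fosl2 window held an NRF1 motif at base 31. Positions are counted from 1 at the left end of each sequence.

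Constitutive regions lay mostly at promoters. A promoter window was overlapped by 7756 of 8920 (87.0%, 86.2 to 87.6), against 14.6% (14.2 to 14.9) of the 40759 other WT H3K27ac peaks and 27.6% of all. Limb-only regions, the 1201 WT H3K27ac peaks that overlapped Shh-/- H3K27ac and both H3K4me2 lists but neither NIH3T3 list, were at a promoter window in 41.2% (38.5 to 44.0). A transcription start itself was covered by 46.4% of constitutive regions, 17.1% of limb-only regions and 2.80% of non-members. Constitutive regions outside genes and promoter windows made up 3.99%, against 36.4% of non-members. Read from the promoters, 56.7% of the WT H3K27ac peaks at a promoter window were constitutive, against 3.23% of those outside one. The intervals of the promoter share did not overlap between constitutive regions, limb-only regions and non-members, which include the limb-only regions. Promoter position was not used by the rule, but the rule asked for H3K4me2, which itself marks promoters. A promoter share above that of non-members is thus no independent result, and how much of it the H3K4me2 lists selected was not tested.

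CpG content separated the classes in the same order. The central 300 bp was CpG-rich, with over 50% G and C and a CpG observed/expected ratio over 0.6, in 5625 constitutive regions (63.1%, 62.1 to 64.1). The share was 32.9% (30.3 to 35.6) of limb-only regions and 7.23% (6.98 to 7.49) of non-members. The median ratio was 0.747 in constitutive regions, 0.498 in limb-only regions and 0.225 in non-members, and the median G and C content was 62.0%, 53.7% and 45.3%. The difference was also present within promoters, where 68.4% (67.3 to 69.4) of constitutive regions were CpG-rich against 40.6% (39.4 to 41.8) of the other WT H3K27ac peaks at promoter windows. Among the 1164 constitutive regions away from promoters, 27.7% (25.2 to 30.3) were CpG-rich, against 1.55% (1.42 to 1.68) of the other distal peaks.

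**Figure D1:**
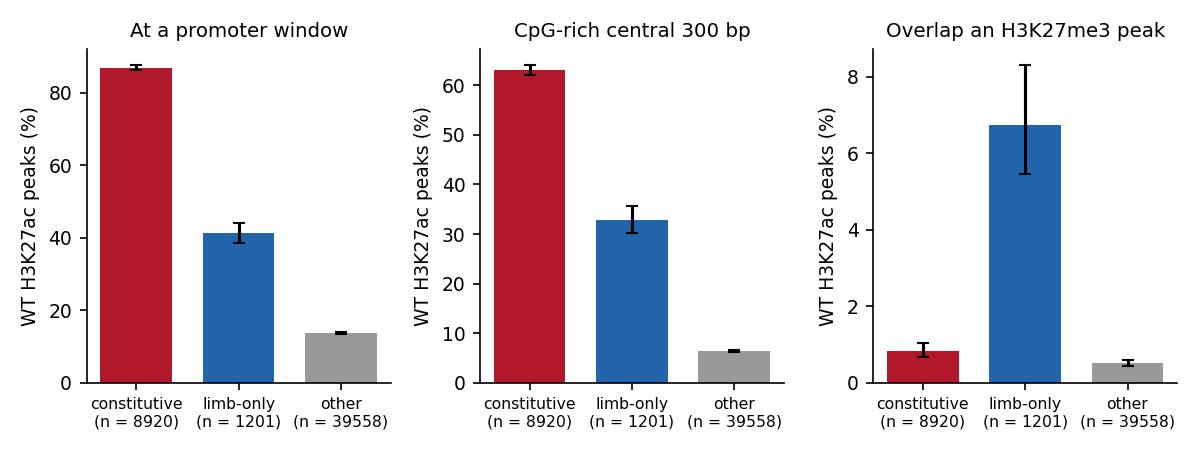
Share of WT H3K27ac peaks (percent, with 95% Wilson intervals) at a promoter window, with a CpG-rich central 300 bp and overlapping a Shh-/- H3K27me3 peak, for constitutive regions, limb-only regions and the other peaks. Each of the first 2 shares is highest in constitutive regions (87.0% and 63.1%), while the H3K27me3 share is highest in limb-only regions (6.74% against 0.841%).

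The constitutive regions were wide and well ranked. These values are a description, since a wide peak meets others more easily and the rule chose on such meetings. Their median width was 700 bp (quartiles 400 and 1150), against 200 bp for non-members and 650 bp for limb-only regions. They were 63.3% of the best-ranked decile of the WT H3K27ac list and 2.46% of its last decile. The promoter share was alike over the ranks. By decile, 84.6 to 90.2% of constitutive regions were at a promoter window against 13.5 to 18.1% of non-members. Over 5 width bins the share was 77.3 to 89.3% of constitutive regions and 8.20 to 16.6% of non-members.

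**Figure D2:**
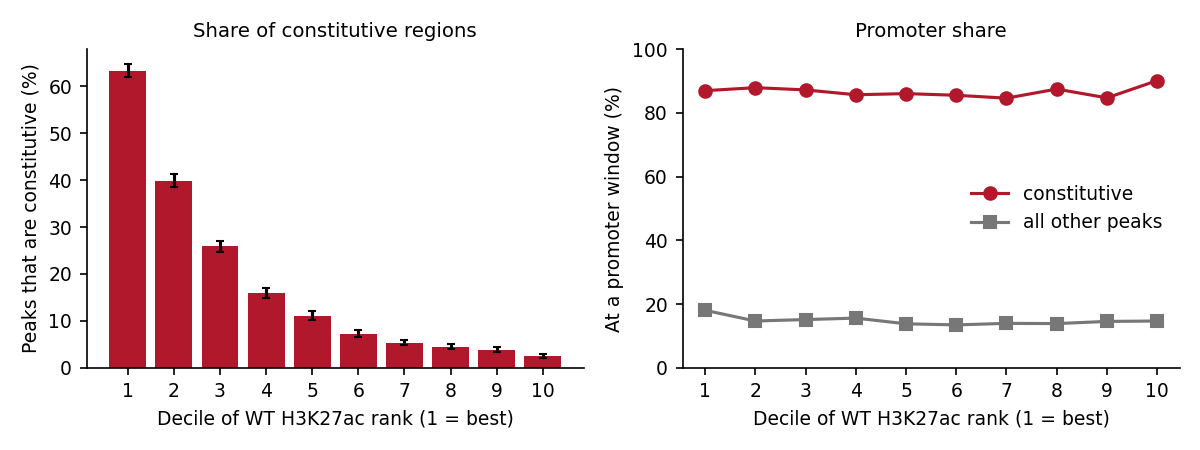
Left, percent of WT H3K27ac peaks that were constitutive in each decile of rank (bars, with 95% Wilson intervals). Right, percent at a promoter window for constitutive regions (circles) and all other peaks (squares): the left panel falls from 63.3% to 2.46%, while the 2 lines of the right panel stay at 84.6 to 90.2% and 13.5 to 18.1%.

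The single overlaps that make up the rule were far more common than all 5 together. Of all WT H3K27ac peaks, 51.5% overlapped a Shh-/- H3K27ac peak, 32.1% a WT H3K4me2 peak, 30.7% a Shh-/- H3K4me2 peak, 38.2% a control NIH3T3 H3K27ac peak and 38.3% a purmorphamine NIH3T3 H3K27ac peak, and 18% overlapped all 5. By number of other lists met, 15975 peaks overlapped 0, 11396 overlapped 1, 5157 overlapped 2, 4397 overlapped 3, 3834 overlapped 4 and 8920 overlapped 5. More peaks therefore met all 5 lists than met any other number from 2 to 4.

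Of the 3834 peaks that lacked 1 list, 2315 lacked Shh-/- H3K27ac, 784 lacked Shh-/- H3K4me2, 426 lacked WT H3K4me2, 159 lacked the purmorphamine list and 150 the control NIH3T3 list. The missing list had a peak touching the region with no base shared in 422 cases and within 500 bp in 2157. The best-ranked example was the region at Ptbp1, a splicing regulator gene, at rank 89 of the WT H3K27ac list, whose Shh-/- H3K4me2 neighbour touched it without overlap. Zfp821, Nufip2, Psma3 and Csnk1d followed in rank with the same list missing and the same gap of 0. Just inside the rule, the smallest overlap with any list was 50 bp, the step on which the authors' peak edges fall, and 570 constitutive regions (6.39%) met at least 1 list by that much only. Examples were the regions at Alkbh8, Cwf19l2, Pex11g, Mcoln1 and Naa60.

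A shared region does not mean that the 6 peaks covered the same bases. A base covered by all 6 lists was found in 8041 constitutive regions (90.1%). The 10880 stretches covered by all 6 had a median length of 200 bp and made up 33.2% of the bases of the constitutive regions. The constitutive regions in turn held 35.1% of all bases in WT H3K27ac peaks.

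The placement of the marks around transcription starts shows how they can meet a region and still miss each other. It was read at the 3000 genes with a constitutive region and a single annotated start. WT H3K27ac peaks covered 55.1% of these starts and reached 84.8% at 250 bp into the gene. WT H3K4me2 peaks covered 30.9% of starts and reached 82.8% farther in, at 600 bp. The Shh-/- lists had the same order of positions, with H3K27ac highest at 200 bp (77.1%) and H3K4me2 at 650 bp (78.6%). H3K27ac peaks of control NIH3T3 cells reached 93.5% at 300 bp and those of purmorphamine-treated cells 94.4% at 250 bp. Each of the 6 active-mark profiles had a second, lower rise upstream and a dip at or just before the start. H3K27me3 peaks of Shh-/- limb buds covered at most 0.967% of any position within 5 kb.

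**Figure D3:**
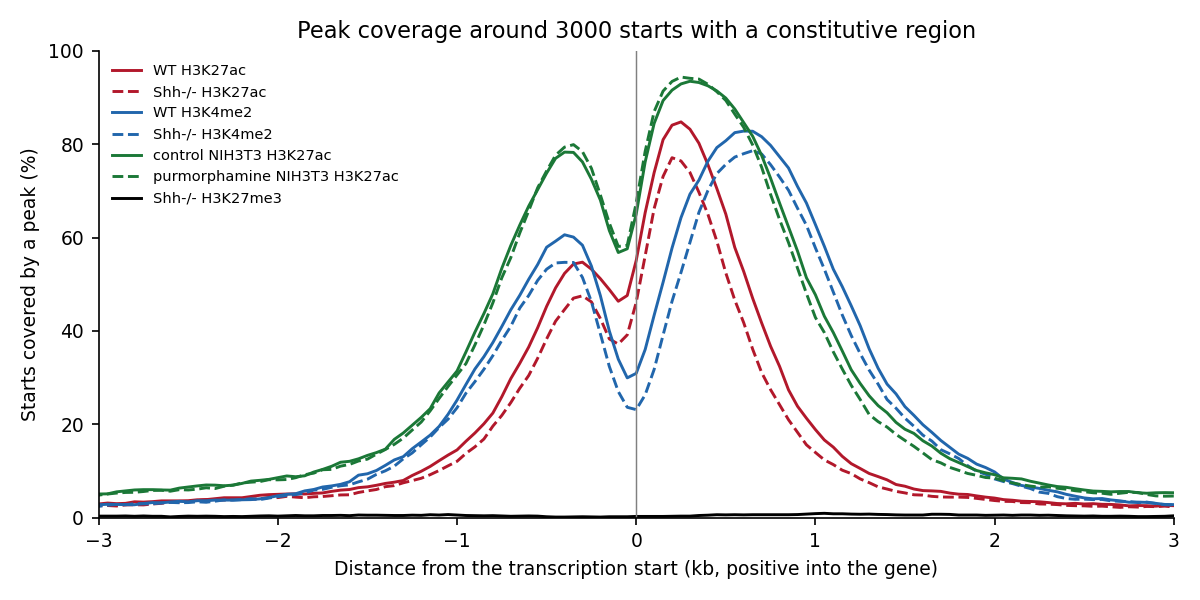
Percent of 3000 transcription starts covered by a peak of each list (y axis) against distance from the start in kb (x axis, positive into the gene). H3K27ac coverage is highest 200 to 300 bp into the gene, H3K4me2 coverage 600 to 650 bp into it, and H3K27me3 stays at or under 0.967%.

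For each constitutive region the best-ranked overlapping peak of each list was taken. Its median rank percentile was 16.2 in WT and 18.8 in Shh-/- limb H3K27ac, 28.2 in WT and 27.7 in Shh-/- H3K4me2, 9.04 in control and 7.79 in purmorphamine-treated NIH3T3 H3K27ac. Peaks in the best decile of their list made up 35.3%, 31.3%, 16.9%, 18.6%, 54.3% and 59.7%, in the same order. The NIH3T3 lists were the longest, at 91023 and 87809 peaks. A percentile there spans more peaks than in the limb lists of 36613 to 49679, so these medians are not compared between lists of unequal length. The worst percentile of a region, used below, is its highest value over these lists. It and the differences within pairs of lists do set percentiles of unequal lists side by side. The medians were highest in H3K4me2, at 28.2 and 27.7. How often an H3K4me2 list gave the worst percentile was not tested. As ranks the medians were 8060.5 in WT and 8275.5 in Shh-/- H3K27ac, 10319.5 and 10649.5 in H3K4me2, and 8228.5 in control and 6836.5 in purmorphamine-treated NIH3T3 cells. The median log2 ratio of ChIP to input of the matched peaks was 4.18 in WT H3K27ac, beside 3.09 over that list, and 3.59 in WT H3K4me2, beside 3.07.

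**Figure D4:**
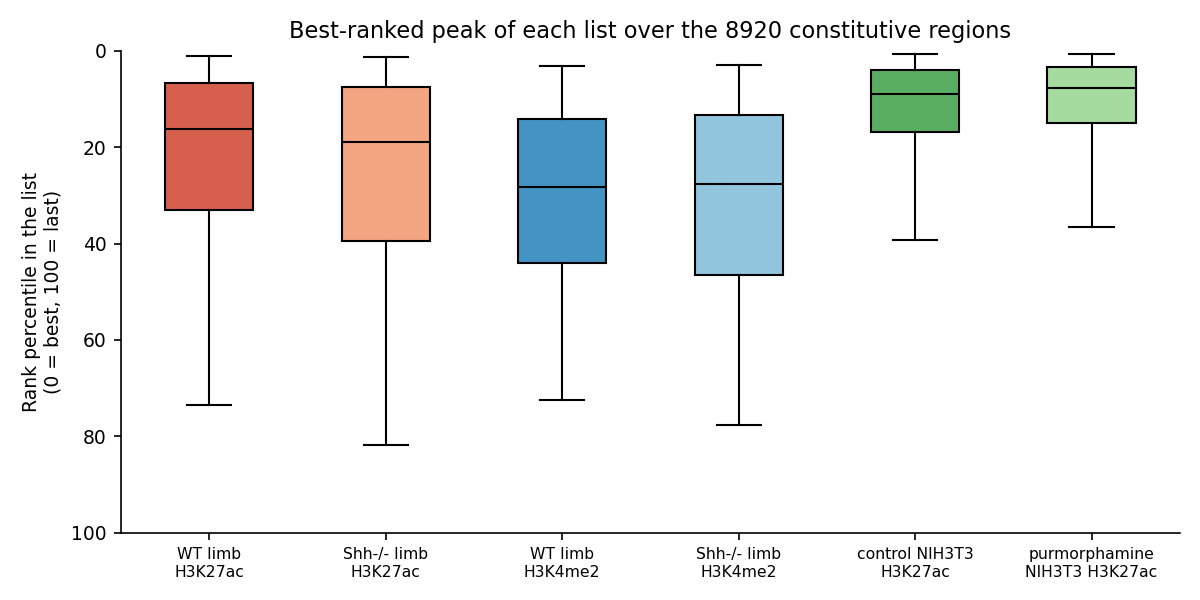
Rank percentile (y axis, 0 = best, at the top) of the best-ranked peak of each of 6 lists over the 8920 constitutive regions. Boxes show quartiles with the median as a line and whiskers the 5th and 95th percentiles; the medians are 16.2 and 18.8 for limb H3K27ac, 28.2 and 27.7 for H3K4me2 and 9.04 and 7.79 for the NIH3T3 lists, which are longer, so that their percentiles span more peaks.

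Regions that ranked high in one list did not rank high in every other. Across the 8920 constitutive regions, which share the width of the WT H3K27ac peak between lists, Spearman's rho of the rank percentiles was 0.695 between the NIH3T3 lists, 0.692 between WT and Shh-/- H3K27ac and 0.356 between WT and Shh-/- H3K4me2. It was 0.327 between WT limb and control NIH3T3 H3K27ac. Between WT H3K27ac and WT H3K4me2 of the same tissue it was 0.0173. These values are descriptions over regions and not over replicates. At most 20 in the worst of the 6 lists was reached by 616 regions (6.91%), at most 10 by 70 and at most 5 by 3.

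The 6 promoter regions with the best standing in their worst list belonged to Tcf7l2, Zmiz1, Adgrl2, Arhgap11a, Hmga1 and Prrc2a. Tcf7l2 encodes a transcription factor of Wnt signalling, and its region (chr19:55741800-55745249, 3450 bp, over the start) had rank percentiles of 3.99 in WT and 3.76 in Shh-/- H3K27ac, 1.08 and 1.91 in H3K4me2 and 0.235 and 0.159 in control and purmorphamine NIH3T3 cells. Zmiz1 encodes a transcriptional co-regulator, and its region had 3.21 and 4.28, 4.20 and 2.69, and 0.664 and 0.938. Adgrl2, an adhesion receptor gene, had 0.920 and 1.43, 2.67 and 4.73, and 0.296 and 0.573. These 3 stayed within the best 5 percent of every list. Hmga1, which encodes an architectural chromatin protein, stood at 0.765 in WT H3K27ac and 5.52 in control NIH3T3 cells.

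The 6 best distal regions were nearest Reep3, Zfp52, Maml3, Foxj2, Cdkn1b and Cplx2. Those of Reep3, Foxj2, Cdkn1b and Cplx2 overlapped the window of another annotated transcript that is not protein-coding, as did 30.2% (27.7 to 32.9) of all distal constitutive regions. The region nearest Reep3 lay 91197 bp from its start (chr10:67002100-67005649, over an annotated exon) and had rank percentiles of 0.982 in WT and 1.72 in Shh-/- H3K27ac, 8.35 and 2.98 in H3K4me2 and 0.314 and 1.91 in NIH3T3 cells. The Cdkn1b region (chr6:134926850-134928799) was the one among these 6 outside every annotated gene, protein-coding or not. It stood at 0.876 in WT and 3.43 in Shh-/- H3K27ac, 9.22 and 11.8 in H3K4me2 and 0.744 and 0.712 in NIH3T3 cells. Among the 6, the regions of Zfp52 and Maml3 were CpG-rich and lay 2590 and 1727 bp from the start, just past the promoter window. Of all 1164 distal constitutive regions, 31.4% overlapped an annotated exon.

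The 2 peaks of a region were also compared within each pair of lists. The rank percentiles of control and purmorphamine H3K27ac were within 10 points of each other in 80.8% of regions, those of WT and Shh-/- H3K27ac in 53.9% and those of WT and Shh-/- H3K4me2 in 34.6%. This share also depends on how near the top both peaks lie, and the NIH3T3 lists had more of the regions in their best decile, while Spearman's rho was 0.695 for the NIH3T3 pair and 0.692 for the limb H3K27ac pair. The median difference was 0.644 points for control minus purmorphamine, -1.77 for WT minus Shh-/- H3K27ac and -0.107 for WT minus Shh-/- H3K4me2. With no replicate lists, the spread of such differences between replicates of one condition is not known, and no difference is called.

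Some of the largest gaps between WT and Shh-/- H3K27ac rested on a narrow peak in the list with the worse rank. Rsbn1, a gene of a nuclear protein, had 6.14 in WT and 94.6 in Shh-/-. Ttf1, which encodes an RNA polymerase I termination factor, had 12.5 and 99.6, Atxn7l3, a deubiquitinase module gene, had 6.87 and 93.2, and 4921524J17Rik had 9.26 and 93.8. These 4 regions were 400 to 750 bp wide in WT, and the best-ranked Shh-/- peaks they met were 100 to 250 bp wide. In the other direction stood Crat, the carnitine acetyltransferase gene, at 100 in WT and 1.96 in Shh-/-, then Angptl4 at 98.2 and 1.73, Cmc2 at 93.6 and 1.43, Scarf2 at 94.5 and 2.80 and Spag7 at 92.7 and 2.23. All 5 of these WT peaks were 100 to 150 bp wide, where 100 bp is the narrowest in the list.

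The largest gaps between control and purmorphamine NIH3T3 H3K27ac each rested on a narrow peak in the list with the worse rank. A region at Disp1, which encodes the protein that releases Hedgehog ligand from cells, had 27.6 in control and 95.2 with purmorphamine (chr1:183146050-183147499). The peak met there was 1800 bp wide in control and 200 bp with purmorphamine. The others of that direction were nearest Meis1 (5.43 and 81.2, 140715 bp from its start), Sept9 (10.1 and 83.3), Hdac9 (25.2 and 91.4) and Casz1 (13.8 and 77.1). In the other direction were Ago2, a gene of RNA interference, with 96.8 in control and 0.302 with purmorphamine, Birc5, which encodes the mitotic protein survivin, with 97.2 and 0.978, then Cxxc5 with 96.6 and 10.2, Erlin2 with 91.9 and 11.4 and Gulp1 with 86.7 and 7.60. The large gaps at Ago2 and Birc5 were at regions of 250 and 300 bp. The worse-ranked peak was 150 to 200 bp wide in the regions of the first direction and 100 to 200 bp in those of the other.

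At the level of genes, 7080 of 21851 protein-coding genes (32.4%, 31.8 to 33.0) had a constitutive region at a promoter window, and 1701 had 2 or more. Peaks of all 6 lists were found at the windows of 7889 genes. A start of another protein-coding gene on the opposite strand lay within 1 kb upstream of 28.3% (27.3 to 29.4) of the 7080 genes and of 8.09% (7.66 to 8.54) of the others. For the 349 genes with a limb-only region at a promoter window it was 15.8% (12.3 to 20.0). Among chromosomes 1 to 19 and X the number of regions per 100 protein-coding genes ran from 23.3 on X to 50.9 on chromosome 18, with a median of 43.7.

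Genes of basic cell machinery had a constitutive region more often than the 32.4% of all genes. Of the 74 cytosolic ribosomal protein genes, 70 had one (94.6%, 86.9 to 97.9). The exceptions were Rpl11, Rpl36, Rpl36a and Rpl5. The first 3 had peaks of all 6 lists at their windows that did not all meet 1 WT H3K27ac peak, and Rpl5 had no WT H3K4me2 peak there. All 17 genes of the chaperonin and heat shock list had a constitutive region, and that list does not hold every gene of these families. The gene lists were written with earlier results of these data known. Of the 24 listed genes of replication licensing and G1 to S passage, 22 had one, and Ccnd2 and Cdc6 were the exceptions. The count was 26 of 32 for core spliceosome proteins, 20 of 30 for Mediator subunits, 49 of 74 for nuclear genes of the respiratory chain and ATP synthase, 13 of 20 for aminoacyl-tRNA synthetases, 25 of 39 for proteasome subunits and 8 of 13 for RNA polymerase II subunits. The 14 proteasome genes without one included Psma1, Psma3, Psma5, Psmb3, Psmb5, Psmc4 and Psmd11, of the standard particle. Psmd9 and Psmd10 were also among them. The rest were Psmb8, Psmb9 and Psmb10, of the immunoproteasome, Psmb11, of the thymus, and Psma8, of the testis.

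The median percentile in the worst of the 6 lists was 40.5 for the ribosomal protein genes with a constitutive region, 46.3 for the proteasome and 41.4 for the respiratory chain, and the genes given next lead their lists. Snrpb, which encodes a core protein of spliceosomal particles, had rank percentiles of 0.709 in WT and 4.23 in Shh-/- H3K27ac, 4.33 and 7.24 in H3K4me2 and 0.472 and 2.89 in NIH3T3 cells. Rps26, of the small ribosomal subunit, had 2.23 and 0.874, 11.9 and 10.1, and 2.26 and 6.59. Psma7, of the proteasome core, had 4.99 and 5.66, 7.55 and 1.17, and 6.26 and 1.75. For the 3 genes every value was under 12, with the highest in H3K4me2.

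Med30, a Mediator subunit gene, lay between 3.62 and 9.80 in all 6 lists. Mcm5, which encodes a subunit of the replicative helicase, lay between 0.278 in Shh-/- H3K27ac and 20.3 in purmorphamine NIH3T3 cells. Hspa4, a heat shock protein gene, was at 14.5 in WT H3K4me2 and at 5.82 or better in the other lists. Hspd1 and Hspe1, which encode the mitochondrial chaperonin and its co-chaperonin, shared a single region (chr1:55087000-55089249). Atp5l, of the ATP synthase, and Gars, the glycyl-tRNA synthetase gene, had their worst values at 14.3 and 17.4, while Polr2l, an RNA polymerase II subunit gene, reached 23.2 in WT H3K4me2.

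Tissue-restricted genes were at the other end. No constitutive region was found at the promoters of 16 skeletal muscle, 16 endothelial and 16 blood cell genes, 18 neural regulators and 1091 olfactory receptor genes. The upper bound of the 95% Wilson interval for 0 of 16 is 19.4%, for 0 of 18 it is 17.6% and for 0 of 1091 it is 0.351%. Of 16 liver and pancreas genes, 1 had one: Foxa3, a forkhead factor gene, whose region had rank percentiles of 10.7 to 34.4.

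**Figure D5:**
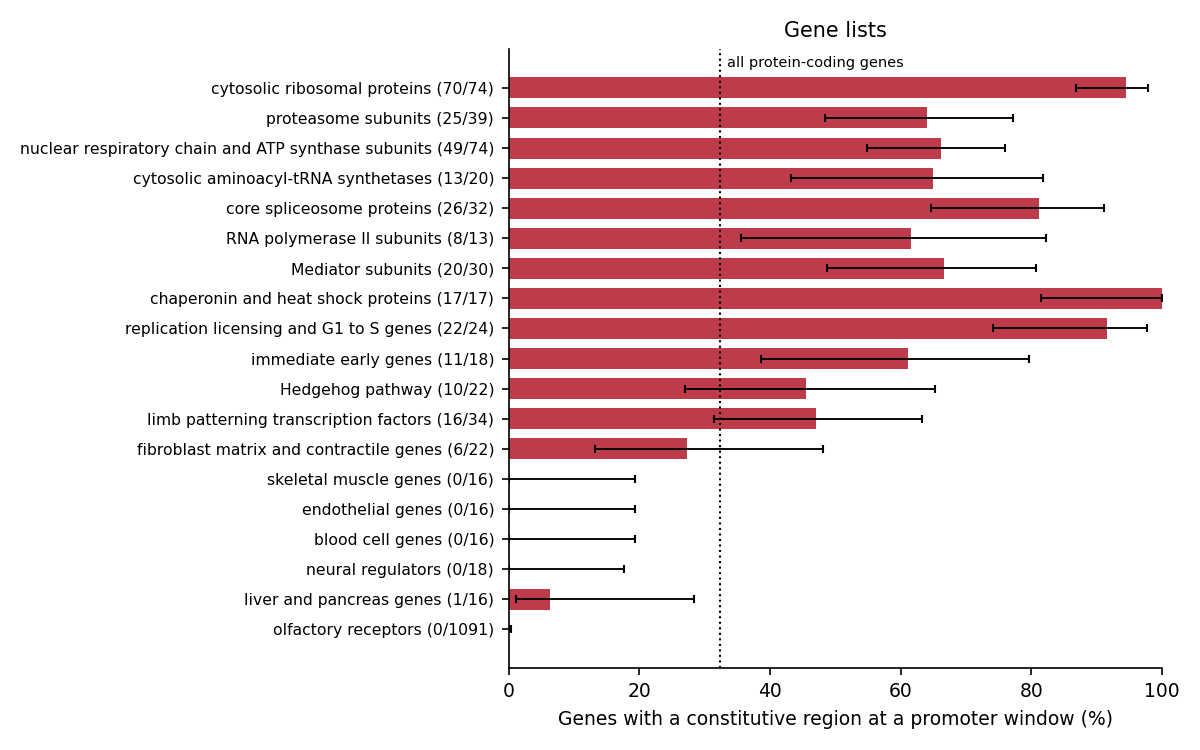
Percent of the genes of 19 lists with a constitutive region at a promoter window (bars, with 95% Wilson intervals; counts in parentheses), beside the 32.4% of all protein-coding genes (dotted line). The 9 lists of basic cell machinery lie between 61.5 and 100%, and the 6 lists of muscle, endothelial, blood, neural, liver and pancreas and olfactory genes between 0 and 6.25%.

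Immediate early genes, which are induced within minutes of a stimulus, had a constitutive region in 11 of 18 cases: Egr1, Egr2, Fos, Fosl2, Ier2, Jun, Junb, Jund, Klf6, Myc and Srf. Their median worst percentile was 17.8, better than the 29.3 to 46.3 of the 9 machinery lists. Ier2 stood between 2.65 and 11.2 in the 6 lists. Fos stood at 0.126 in WT and 1.60 in Shh-/- H3K4me2 and at 15.1 in control NIH3T3 H3K27ac. Fosl2 was at 0.0857 in control NIH3T3 cells and at 13.4 in Shh-/- H3K27ac. An H3K27me3 peak of any q-value lay somewhere in the promoter window of 10 of the 18 genes, beside 2922 of all 21851 protein-coding genes (13.4%).

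Of the Hedgehog pathway genes, 10 of 22 had a constitutive region (45.5%, 26.9 to 65.3), an interval that includes the 32.4% of all genes. Among those that receive the signal were Ptch1, the receptor, Smo, the transducer it inhibits, and the co-receptor genes Boc, Cdon and Gas1. Ptch1 stood at 2.89 in WT and 7.97 in Shh-/- H3K27ac, 6.34 and 0.930 in H3K4me2, and 9.69 in control and 0.216 in purmorphamine NIH3T3 cells. Smo stood at 0.556 and 0.965, 24.8 and 11.5, and 0.0110 and 2.53. Gas1 was among the best-ranked peaks of all H3K27ac lists, at 0.0382 and 0.492 in the limb and 0.122 and 0.244 in NIH3T3 cells, with 17.8 and 38.6 in H3K4me2. Boc had 3.60 and 6.53 in limb H3K27ac and Cdon 3.90 and 0.296.

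The transcription factors of the pathway were split. Gli2 stood at 3.33 in WT and 0.770 in Shh-/- H3K27ac and at 6.81 and 2.82 in NIH3T3 cells, and Gli3 at 0.630 and 0.0478 and at 0.868 and 0.335. Gli1, a target gene of the pathway, had no constitutive region: its window had an H3K27ac peak in WT limb and purmorphamine NIH3T3 cells and none in Shh-/- limb or control NIH3T3 cells. Sufu, the inhibitor that binds Gli proteins, stood at 37.6 and 20.4 in limb H3K27ac and 1.27 in WT H3K4me2. Hhat, which palmitoylates Hedgehog ligand, had its worst value at 17.9. The ligand genes Shh, Ihh and Dhh, the inhibitor gene Hhip, and Kif7, Kif3a, Ift88, Gpr161, Scube1 and Scube2 had none. Of these, Kif7, Ift88 and Kif3a had H3K27ac peaks in both NIH3T3 lists but not in both limb lists.

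Limb patterning genes were represented in part. Of 34 such transcription factor genes, 16 had a constitutive region (47.1%, 31.5 to 63.3), an interval that includes the 32.4% of all genes. Among the 16 were Prrx1, Prrx2, Shox2, Twist1, Tbx3, Meis1, Meis2, Irx3, Irx5, Hoxa9, Hoxa10, Hoxd9 and Hoxd10. WT H3K27ac was present at 32 of the 34 windows and NIH3T3 H3K27ac at 14 in each list. Hoxa9 and Hoxd10 had no NIH3T3 peak at their own windows, and their constitutive regions, 20350 and 19650 bp wide, met NIH3T3 peaks elsewhere along their length. Prrx1, a marker of limb mesenchyme, stood at 0.449 in WT and 0.121 in Shh-/- H3K27ac and at 0.0571 and 0.00569 in NIH3T3 cells. The posterior and distal genes Hand2, Hoxa11, Hoxa13, Hoxd11, Hoxd12 and Hoxd13 had none, and neither did Tbx5 and Msx1. Of 22 fibroblast matrix and contractile genes, 6 had one: Col1a2, Col3a1, Col5a2, Fn1, Tpm1 and Vim. That is 27.3% (13.2 to 48.2), an interval that also includes the 32.4% of all genes.

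The 5 widest constitutive regions are given next. A region of 20350 bp covered the starts of Hoxa7, Hoxa9 and Hoxa10 (chr6:52215700-52236049), and 1 of 19650 bp covered those of Hoxd9 and Hoxd10 (chr2:74683400-74703049). Hox genes encode the homeodomain factors that pattern the limb along its axes. The next were at Mecom (11550 bp), Zfp608 (11450 bp) and Dusp6 (10100 bp), a phosphatase gene induced by FGF signalling. The Dusp6 region stood at 0.0503 in WT and 0.610 in Shh-/- H3K27ac, and at 2.60 in WT and 27.6 in Shh-/- H3K4me2.

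H3K27me3 of Shh-/- limb buds is the readout that the rule did not use. It overlapped 75 constitutive regions (0.841%, 0.671 to 1.05), beside 0.725% of all WT H3K27ac peaks and 0.699% (0.623 to 0.785) of non-members, so the share was near that of the whole list. It was 0.554% with a q-value under 0.05 in every list and 1.27% with control NIH3T3 peaks as the unit. For 26 of the 75 regions the best-ranked H3K27me3 peak met had a q-value of 0.05 or more. Of the 20830 peaks in the H3K27me3 list, 9831 had a q-value under 0.05. Counts of H3K27me3 use all peaks unless a q-value limit is given. Limb-only regions overlapped it in 81 of 1201 cases (6.74%, 5.46 to 8.31), and the intervals of limb-only and constitutive regions did not overlap. Among constitutive regions the share was 0.606% (0.456 to 0.805) at promoters, or 47 of 7756, and 2.41% (1.67 to 3.45) away from them. Of the 285 non-members that met H3K27me3, 111 were among the 5932 at promoter windows and the rest among the 34827 outside. The near-equal total shares thus covered unlike shares at promoters and away from them. By width, 2.99% (2.16 to 4.13) of constitutive regions of 1600 bp or more met H3K27me3, against 1.97% (1.33 to 2.91) of such non-members. At 400 to 799 bp it was 0.353% (0.197 to 0.631) against 0.942% (0.740 to 1.20). Among the width bins the intervals were apart only at 400 to 799 bp. Wide regions can meet a neighbouring peak more easily, and width was not separated from the other differences here.

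The overlaps were partial. H3K27me3 peaks covered a median of 28.9% of the bases of the 75 constitutive regions, 50.0% of the 81 limb-only regions and 88.2% of the 285 non-members. A cover of 50% or more was found in 20 of 75 constitutive regions and in 204 of 285 non-members. The 75 regions had a median width of 1450 bp, while the median over all non-members was 200 bp. A peak of a given length covers a smaller percent of a wider region, and width was not separated from class here. The median overlap was 300 bp, and 44 of the 75 overlaps were of 300 bp or less. Some of the 75 regions shared a nearest gene: they had 48 nearest genes, and 13 genes with 2 or more held 40 of the 75 regions. The same share over all constitutive regions is not given here, so no clustering is called. Bcor, an X-linked gene of a Polycomb complex subunit, was nearest to 9 of the 75, and to 13 of all constitutive regions. Irx5 was nearest to 5 of the 75 and Tfap2a to 4, and 9 Hox genes to 11 in all.

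The largest overlaps were 8800 bp of the Hoxd10 region, 6500 bp of the Hoxa9 region, 4750 of the 5300 bp of the Igf2 region, 2300 bp of a region at Hoxa10 and 1350 bp of a region at Tbx15. The Igf2 region (chr7:142659700-142664999) had rank percentiles of 1.42 in WT and 2.25 in Shh-/- H3K27ac. The 75 regions had a median percentile of 12.5 in WT and 8.00 in Shh-/- H3K27ac, the genotype in which H3K27me3 was measured. Each list comes from many cells together, so both marks on the same chromatin, on different alleles or in different cells cannot be told apart. Near Ptch1 a region of 1450 bp met an H3K27me3 peak only 100 bp wide, with a q-value of 0.246 and rank 20476 of 20830, and the best-ranked Ptch1 region of 3650 bp did not meet it. On X, 11 of 221 constitutive regions (4.98%, 2.80 to 8.69) met H3K27me3, against 64 of 8698 (0.736%, 0.577 to 0.938) on the autosomes. Without the regions nearest Bcor it was 2 of 208 (0.962%, 0.264 to 3.44).

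At the level of genes, an H3K27me3 peak of any q-value lay in the promoter window of 240 of the 7080 genes with a constitutive region (3.39%, 2.99 to 3.84). It lay in that of 236 of the 2486 genes with a WT H3K27ac peak but no constitutive region (9.49%, 8.40 to 10.7) and of 2446 of the 12285 genes with no WT H3K27ac peak (19.9%, 19.2 to 20.6). These 3 intervals did not overlap.

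Sequence motifs of promoter-binding factors were counted as exact matches on either strand. In the central 300 bp, SP/KLF (GGGCGGG) was found in 26.7% (25.8 to 27.7) of constitutive regions and 5.17% of non-members, NRF1 (GCGCANGCG) in 4.90% (4.47 to 5.37) and 0.650%, ETS (CCGGAAGT) in 3.16% and 0.631%, and YY1 (AAGATGGCG) in 1.92% and 0.302%. The other direction was seen for the TATA box (TATAAA), in 5.38% against 19.9%, for AP-1 (TGANTCA), in 4.02% against 8.43%, for the homeodomain core (TAATTA), in 2.86% against 9.88%, and for RUNX (TGTGGTT), in 3.13% against 6.22%. The GLI motif (GACCACCCA) was at 0.235% and 0.255%, and NF-Y (CCAATCA) at 2.85% and 2.82%, with overlapping intervals for both. The other motifs searched were CRE (TGACGTCA), at 1.20% and 0.218%, E-box (CACGTG), at 6.40% and 3.79%, CTCF (CCACNAGGG), at 1.46% and 1.10%, TEAD (CATTCC), at 11.4% and 15.8%, and ZNF143/THAP11 (ACTACAATT), at 0.0785% and 0.196%. The letters of SP/KLF, NRF1, ETS, YY1 and CRE each hold a CpG dinucleotide, while those of the TATA box, AP-1, the homeodomain core and RUNX hold none.

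The motifs were also compared among promoters of like CpG content. RefSeq promoters of 20122 protein-coding starts (250 bp before to 50 bp after the start, GRCm38.p6) were split into those that overlapped a constitutive region (5019, of which 82.8% were CpG-rich) and the others (15103, 34.4%). Over all of these promoters, ETS was found in 5.35%, YY1 in 1.91%, NRF1 in 8.90%, SP/KLF in 35.0%, the TATA box in 12.1%, AP-1 in 7.00%, the homeodomain core in 4.49%, RUNX in 4.66% and the ZBTB33-like motif in 0.979%. Among the CpG-rich promoters alone, SP/KLF was found in 56.7% (55.2 to 58.2) of the 4158 that overlapped a constitutive region and in 59.4% (58.1 to 60.7) of the 5194 others, and the TATA box in 4.30% (3.73 to 4.97) and 4.49% (3.96 to 5.08). For these 2 motifs the difference seen over all peaks was not found within CpG-rich promoters. Among the promoters that were not CpG-rich it was, with SP/KLF in 28.7% (25.8 to 31.8) of the 863 that overlapped a constitutive region and 13.6% (13.0 to 14.3) of the 9910 others, and the TATA box in 8.92% and 19.7%, with intervals that did not overlap. Among CpG-rich promoters ETS remained apart, with 501 of 4158 (interval 11.1 to 13.1%) against 355 of 5194 (6.18 to 7.55%), as did YY1, at 5.27% (4.63 to 5.99) against 2.08% (1.73 to 2.50), and the ZBTB33-like motif (CTCGCGAGA), at 2.98% (2.51 to 3.54) against 1.14% (0.882 to 1.46). NRF1 stood at 19.3% (18.1 to 20.5) against 15.9% (15.0 to 16.9). AP-1 (2.18 to 3.15% against 3.29 to 4.33%) and CRE (3.91 to 5.17% against 2.75 to 3.71%) also stayed apart. The intervals overlapped for RUNX (2.07 to 3.02% against 2.02 to 2.86%) and the homeodomain core (0.872 to 1.53% against 1.205 to 1.87%). They also overlapped for E-box (10.6 to 12.5% against 10.7 to 12.4%), TEAD (8.76 to 10.6% against 9.08 to 10.7%) and CTCF. For these too, the difference seen over all peaks was not found within CpG-rich promoters. A match describes letters in a window and not a bound factor.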

How the data were processed

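Libraries were grouped by their labels. By the study's methods, peaks were called with CisGenome 2.1.0 on mm10 against input, both replicates of a condition together; the submitters' processing notes name Bowtie2 2.2.5 and limma. For each peak the authors deposited a rank, position and length, a false discovery rate (a q-value), a score (the largest statistic of ChIP against input), the highest ChIP-to-input log2 ratio, and the smallest Poisson p-value as −log10. Ranks and log2 ratios were used to describe peaks within a list, the q-value in an alternative, and the score and −log10 values were only inspected. No fold or p-value of a comparison between conditions was deposited in these lists.

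Overlaps (1 bp or more, on chromosomes 1 to 19, X and Y) were computed in Python 3.11.15 with numpy 2.4.6 and pandas 2.3.3, tested on simulated intervals, and checked with bedtools 2.31.1, which found the same 8920 regions. Peak starts fall on a 50-bp grid, and whether numbering begins at 0 or 1 is not given in the sources used here, so positions may be off by 1 bp. Genes came from the basic GENCODE vM21 annotation (protein-coding transcripts) and sequence from RefSeq GRCm38.p6, the assembly that mm10 names. Shares carry 95% Wilson intervals (scipy 1.17.1). The members, gene lists and motifs were chosen with earlier results of these data known. Regions named were the 6 promoter and 6 distal members with the best rank in their worst list, the 5 widest, the 5 with the most H3K27me3 bases, the 5 with the largest rank gap in each direction for each pair, members just inside and outside 1 bp, every Hedgehog list gene and leading genes of the other lists. Other genes are named only as members of a counted list, and some items that the rule names are not reported here. Alternatives were stricter and looser overlaps, filters on rank and q-value, merged peaks, other lists as the unit counted, autosomes alone and other promoter windows.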

Additional observations from a re-analysis of the deposited data

How the results depend on the processing

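No paired analysis was possible because each list was called from pooled replicates and the results come from no test, and for the same reason leaving out a replicate was not run. The number of constitutive regions was 4464 when 50% or more of the WT peak had to be overlapped and 4539 with the better-ranked 50% of every list, against 8920; under the other alternatives it was 7338 to 12266. The promoter share of 87.0% was 89.7% with the 50% overlap, 84.7% with a gap of up to 500 bp allowed, 91.5% with the better-ranked part of every list, 87.7% with a q-value under 0.05, 87.7% with WT peaks within 1 kb merged, 88.1% with control NIH3T3 peaks as the unit and 88.2% among regions with a base covered by all 6 lists, an alternative chosen after seeing the data. It was 82.7% with windows of 500 bp on either side and 90.9% with the starts of all annotated transcripts. The CpG-rich share of 63.1% was 56.3% with the gap of 500 bp, 72.5% with the better-ranked peaks, 72.9% with merged peaks, 61.5% with Shh-/- H3K27ac peaks as the unit, 53.4% with control NIH3T3 peaks as the unit and 66.2% over the whole peak. The H3K27me3 share of 0.841% was 0.639% with the better-ranked peaks, 0.554% with a q-value under 0.05 and 1.27% with control NIH3T3 peaks as the unit. The cause of these shifts was not tested. With windows of 500 bp, 18 of 19 gene list counts stayed within 1.5 times, and Foxa3 was lost from the liver and pancreas list, which left 0 of 16. Depth per library is unknown, and its part in the absence of a peak was not tested.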
